A study of Homo sapiens with 6 samples.

Results

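The genes described here build and mark the contacts between epithelial cells: 36 listed genes of adherens junctions, tight junctions, desmosomes, keratin filaments, cell polarity and epithelial splicing. They were chosen by name, and each was measured by the probe set that names that gene alone and has the highest mean over the 6 arrays. Of the 36, 33 had such a probe set, among 19775 genes in all. CTNND1, F11R and ESRP2 did not, and no value is given for them. DLD1 is an established human colorectal adenocarcinoma line. The vehicle group held 3 cultures exposed to DMSO for 12 h, and the SAH-BCL9B group held 3 cultures exposed to 10 µM of the peptide for 12 h. SAH-BCL9B is a stapled helical peptide modelled on the part of BCL9 that binds beta-catenin, and the study's title gives disruption of that complex as its aim. All 6 arrays came from this 1 line and 1 time, and none of them was of a control peptide. The labels call the cultures triplicates, and every n below is 3 per group.

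Epithelial cells are joined by a belt of 3 kinds of contact. Tight junctions seal the gap between neighbours through claudins and occludin, adherens junctions hold cells together through cadherins linked by catenins to actin, and desmosomes rivet them through desmosomal cadherins linked by plakophilins and desmoplakin to keratin filaments. Beta-catenin has 2 known roles, as the cadherin-bound catenin at the membrane and as the transcriptional partner of TCF/LEF factors and BCL9 in the nucleus. Keratins assemble as pairs of a type I and a type II protein, and KRT8 with KRT18 is the founding pair of simple epithelia such as the gut lining.

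SAH-BCL9B arrays differed from vehicle arrays in 4 of the 33 measured genes. The splicing regulator gene ESRP1 was 1.73-fold lower and the intestinal cadherin gene CDH17 1.46-fold lower, while the keratin gene KRT8 was 1.41-fold higher and the claudin gene CLDN15 1.28-fold higher. The other 29 missed the threshold, an adjusted p of 0.05 by limma with Benjamini-Hochberg correction over all genes, among them E-cadherin (CDH1), EPCAM and all 5 desmosome genes. Those 4 genes are 12.1% of the 33. Over all genes, 6.93% passed, 3.49% higher and 3.43% lower, and with so few genes the members' share is a description. The 3 SAH-BCL9B arrays lay entirely above the 3 vehicle arrays in 8 of the 33 genes and entirely below in 4, which is 36.4% together. The same held for 28.3% of all genes, 16.3% above and 12% below. An unadjusted limma p under 0.05 was found for 13 of the 33 genes and for 21.4% of all genes. The members' median log2 change was 0.06, and that of all genes 0.02.

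**Figure D1:**
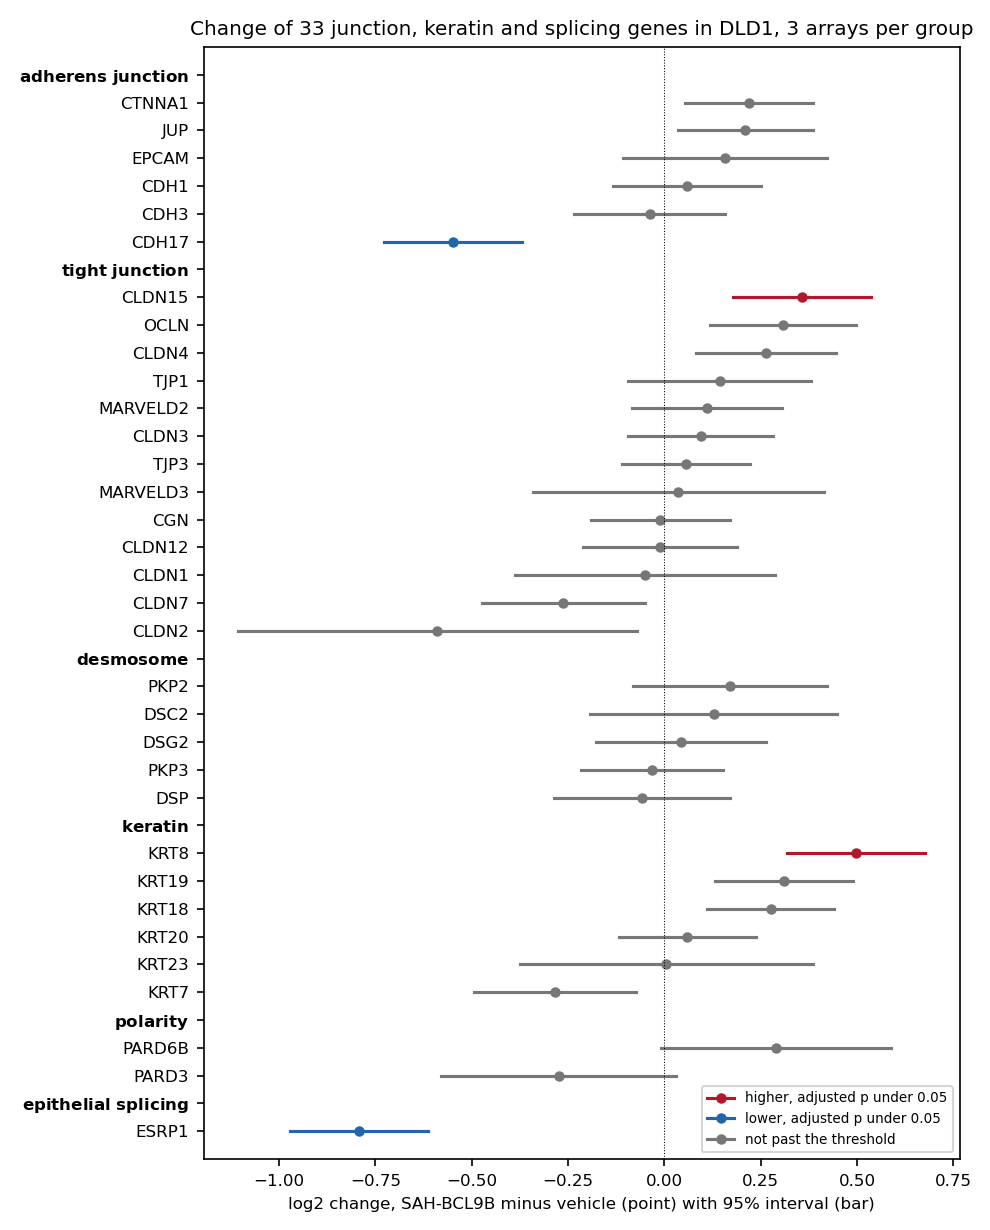
Log2 change (x axis, SAH-BCL9B minus vehicle) of the 33 measured genes, grouped by structure; points are changes, bars are 95% confidence intervals from limma, and colour marks genes past an adjusted p of 0.05. ESRP1 at -0.79 and CDH17 at -0.55 lie lowest among genes past the threshold, KRT8 at 0.50 and CLDN15 at 0.36 are the genes past it on the higher side, and CLDN2 has the widest interval, -1.11 to -0.07.

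The arrays were alike in their medians, 6.58 to 6.62 on the log2 scale. The 3' minus 5' difference of the ACTB control probe sets, a sign of RNA quality, was 0.74 in SAH-BCL9B 2 and 1.20 to 1.38 in the other 5 arrays. For the GAPDH control probe sets it was 0.14 in SAH-BCL9B 2, within the 0.09 to 0.17 of the other 5. Neither difference was largest in SAH-BCL9B 2. SAH-BCL9B 2 was the treated array farthest from the mean of the other two in 15 of the 33 genes (45.5%) and in 49% of all genes. With SAH-BCL9B 2 left out, all 4 calls above held. The values come from whole cultures, so fewer cells expressing a gene and less RNA per cell cannot be told apart.

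Levels of the epithelial and mesenchymal genes are given as a description, since brightness is not comparable between probe sets. In vehicle arrays EPCAM, an adhesion molecule of epithelial cells, measured 14.44 ± 0.11 (log2 level, mean ± SD, n = 3) and CDH1 13.87 ± 0.06. Of the 33 genes, 32 lay above the median of all probe sets in vehicle, as did 61.9% of all genes, and KRT23 (4.91) lay below it. Of 9 repressor and mesenchymal genes, VIM (vimentin, 7.16) and FN1 (fibronectin, 6.68) lay above that median and 7 below it, among them N-cadherin (CDH2, 6.41) and the E-cadherin repressor genes ZEB1 and SNAI2 (5.66 and 4.23). Of 14 measured markers of fibroblasts, leukocytes and endothelium, none passed limma's test. None had an unadjusted p under 0.05, against 21.4% of all genes. Most were dim: 2 of 6 fibroblast, 0 of 4 leukocyte and 1 of 4 endothelial markers lay above that median in vehicle. Their intensities, summed on the linear scale per array, ran from 652 to 774 in vehicle and 666 to 802 in SAH-BCL9B for 6 fibroblast markers, from 208 to 209 and 209 to 259 for 4 leukocyte markers, and from 266 to 288 and 269 to 297 for 4 endothelial markers. SAH-BCL9B 2 had the highest sum in each list. Signal over background is unknown here, so none of these markers can be called absent.

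Promoter sequence was looked at because the peptide is aimed at a cofactor of TCF/LEF factors. The windows of KRT8 and CLDN15, the genes that rose, are shown from 250 bases before to 50 after 1 start per gene, for GRCh38.p14. Any other starts of these genes were not searched, and which start DLD1 cells use was not tested. Both lie on the minus strand, KRT8 at chr12:52926420-52926719 and CLDN15 at chr7:101237753-101238052, and are written 5' to 3' along the gene. Capitals mark letters that match the TCF/LEF core (CTTTGA or CTTTGT) in KRT8 and the AP-1 site TGANTCA in CLDN15, on either strand.
KRT8: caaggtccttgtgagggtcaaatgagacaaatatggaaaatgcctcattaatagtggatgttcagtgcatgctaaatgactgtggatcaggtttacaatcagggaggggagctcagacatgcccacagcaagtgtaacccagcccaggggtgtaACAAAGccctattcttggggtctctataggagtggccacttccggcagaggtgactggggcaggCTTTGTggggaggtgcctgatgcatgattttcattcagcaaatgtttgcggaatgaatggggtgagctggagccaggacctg
CLDN15: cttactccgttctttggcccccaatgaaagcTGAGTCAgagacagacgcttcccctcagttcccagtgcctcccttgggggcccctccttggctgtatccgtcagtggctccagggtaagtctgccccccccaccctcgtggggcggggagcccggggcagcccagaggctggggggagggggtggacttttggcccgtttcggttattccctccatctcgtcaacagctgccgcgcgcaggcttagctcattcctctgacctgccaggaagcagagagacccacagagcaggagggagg
The KRT8 window held 2 matches to the TCF/LEF core, beginning 96 and 32 bases before the start used. The CLDN15 window held 1 match to AP-1, beginning 219 bases before its start. Of the 36 listed genes, 19 had an entry in the promoter table. The TCF/LEF letters were in 7 of those 19 (CLDN3, CLDN4, CTNNA1, DSC2, KRT20, KRT8 and TJP1) and in 26.2% of all 34943 windows of 300 bases. The E-box CAGGTG, the core bound by SNAI and ZEB repressors, was in 10 of the 19 and in 20.6% of all windows, in neither of the 2 shown. The GC box GGGCGG was in 15 of 19 and 44.9%, TGANTCA in 3 of 19 and 7.72%, and AACNNGTT, the core of grainyhead-like factors, in 2 of 19 and 3.53%. Such matches describe letters in these windows and do not show binding. Of the 7 genes with TCF/LEF letters, KRT8 alone passed the expression test, as did 6.93% of all genes. With so few genes this count is a description. Members without an entry could not be searched, and no window of ESRP1 or CDH17, the members that fell, is given here.

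Among adherens junction genes, CDH17 was the member that changed. CDH17 encodes liver-intestine cadherin, an adhesion molecule of the intestinal epithelium that lacks the catenin-binding tail of classical cadherins. Its log2 levels were 12.19, 12.21 and 12.19 in the vehicle arrays and 11.73, 11.55 and 11.67 in the SAH-BCL9B arrays. All 3 treated arrays were below all 3 vehicle arrays, by more than the spread within either group. The log2 change was -0.55 ± 0.08 (SE, limma adjusted p = 0.00806), and the gene has 1 probe set.

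The classical cadherins did not pass the test. CDH1, which encodes E-cadherin, measured 13.88, 13.92 and 13.81 in vehicle and 13.99, 13.81 and 13.98 in SAH-BCL9B, so the groups overlapped. Its change was 0.06 (95% interval -0.13 to 0.25, limma adjusted p = 0.786), and its second, dimmer probe set gave 0.06 too. P-cadherin (CDH3) had a change of -0.04 (interval -0.23 to 0.16) and EPCAM of 0.16 (-0.11 to 0.42). In all 3 the lower bound lay above the value of CDH17.

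The catenins that tie cadherins to the cytoskeleton had small positive values. CTNNA1 encodes alpha-catenin, the link to actin, and measured 11.42, 11.35 and 11.38 in vehicle and 11.60, 11.65 and 11.56 in SAH-BCL9B. JUP encodes plakoglobin, a catenin of both adherens junctions and desmosomes, and measured 11.05, 11.03 and 11 against 11.32, 11.24 and 11.16. In both genes every treated array was above every vehicle array, with changes of 0.22 and 0.21, and neither passed limma's test (adjusted p = 0.121 and 0.154). CTNNA1 did pass when dim genes were filtered out (adjusted p = 0.0471) and under a trended, robust variance model (0.0334). All 5 of its probe sets had a positive change, from 0.10 to 0.32. The median over the 6 measured adherens junction genes was 0.11, with 1 lower and none higher (3.43% and 3.49% over all genes).

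Of 13 measured tight junction genes, 1 rose, none fell and 12 did not pass, with a median change of 0.06. Over all genes, 3.49% rose and 3.43% fell. CLDN15 encodes a claudin that forms pores for sodium in the intestine. It measured 9.13, 9.16 and 9.11 in vehicle and 9.42, 9.46 and 9.59 in SAH-BCL9B, without overlap. The change was 0.36 ± 0.08 (SE, limma adjusted p = 0.0344), and its second probe set gave 0.61. Leaving out vehicle 1, 2 or 3 ended the call (adjusted p = 0.14, 0.103 and 0.107), and so did leaving out SAH-BCL9B 1 or 3 (0.0724 and 0.0961), with changes from 0.31 to 0.39.

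The other claudins went both ways. CLDN4, a sealing claudin, measured 10.58, 10.49 and 10.59 in vehicle and 10.80, 10.74 and 10.90 in SAH-BCL9B, a change of 0.26 ± 0.08 that did not pass (limma adjusted p = 0.0948). CLDN7, a claudin of intestinal cells that also lies along their lateral membranes, measured 12.48, 12.60 and 12.43 against 12.12, 12.35 and 12.24, a change of -0.26 ± 0.09 (adjusted p = 0.141). Neither gene's groups overlapped, and the values lay on opposite sides of 0. With array weights both passed (adjusted p = 0.0418 and 0.0492), as they did under the trended, robust model (0.0301 and 0.0308).

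CLDN2, which forms cation and water pores in leaky epithelia, had the widest spread. It measured 8.53, 8.11 and 8.45 in vehicle and 8.19, 7.26 and 7.87 in SAH-BCL9B. SAH-BCL9B 2 was the lowest array, the groups overlapped, and the change of -0.59 ± 0.22 did not pass (limma adjusted p = 0.175). Leaving out SAH-BCL9B 2 gave -0.33, and leaving out SAH-BCL9B 1 gave -0.80. CLDN3 (0.09), CLDN12 (-0.01) and CLDN1 (-0.05), the last 7.49 in vehicle, had overlapping groups and did not pass. The second, dimmer probe sets of CLDN3 and CLDN1 gave 0.21 and 0.20, both without overlap. Neither passed limma's test over all probe sets (adjusted p = 0.334 and 0.347).

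The tight junction's other membrane and scaffold proteins had values near 0 or above. Occludin (OCLN) measured 12.12, 12.11 and 12.08 in vehicle and 12.45, 12.49 and 12.28 in SAH-BCL9B. Its treated arrays were all above the vehicle arrays, and the change of 0.31 ± 0.08 did not pass the test (limma adjusted p = 0.0685), though it passed with dim genes filtered out (0.0276) and under the trended, robust model (0.00822). The 4 probe sets of OCLN disagreed: the others gave 0.56, 0.02 and -0.10. TJP1, which encodes the scaffold ZO-1, had a change of 0.14 (95% interval -0.09 to 0.38), and TJP3, its relative ZO-3, 0.06 (-0.11 to 0.22). The cytoplasmic plaque protein gene CGN (cingulin) had -0.01, MARVELD2, which encodes tricellulin of three-cell corners, 0.11, and MARVELD3 0.04. With the probe sets used, none of these 5 had groups without overlap, against 28.3% of all genes. A dimmer probe set of TJP1 (change 0.30) and 1 of MARVELD3 (0.26) did have groups without overlap. The groups overlapped in the further probe sets of the other genes.

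Desmosome genes showed no call. With the probe sets used, none of the 5 measured members passed limma's test or had an unadjusted p under 0.05. The latter held for 21.4% of all genes. Their median change was 0.04. PKP2, a plakophilin that links desmosomal cadherins to desmoplakin, had the largest value: 11.07, 11.08 and 10.94 in vehicle and 11.33, 10.98 and 11.29 in SAH-BCL9B, a change of 0.17 (95% interval -0.08 to 0.42, adjusted p = 0.444). SAH-BCL9B 2 fell among the vehicle arrays and the other two lay above them. The second, dimmer probe set of PKP2 measured 6.82, 6.70 and 6.82 against 7.14, 7.01 and 7.09, without overlap. Its change was 0.30 (limma adjusted p over all probe sets = 0.133). In the further probe sets of the other desmosome genes the groups overlapped. PKP3 had -0.03, DSP, which encodes desmoplakin, -0.06, and the desmosomal cadherin genes DSG2 and DSC2 0.04 and 0.13. The signs of PKP3, DSP and DSG2 turned under at least 1 alternative. The intervals of the 5 genes reached at most 0.45 upward and -0.29 downward.

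Keratin genes held the highest-rising member. KRT8, the type II keratin of simple epithelia, measured 13.76, 13.74 and 13.63 in vehicle and 14.21, 14.26 and 14.15 in SAH-BCL9B, with no overlap and a gap wider than either group's range. The log2 change was 0.50 ± 0.08 (SE, limma adjusted p = 0.0113). The call was lost without vehicle 1 (change 0.52, adjusted p = 0.0527) and held without each other array. Its type I partner KRT18 measured 14.89, 14.92 and 14.90 in vehicle and 15.16, 15.24 and 15.15 in SAH-BCL9B. Again every treated array was higher, but the change of 0.28 ± 0.07 missed the threshold (adjusted p = 0.0606).

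KRT19, a further type I keratin of simple epithelia, followed the same course. It measured 13.47, 13.46 and 13.37 in vehicle and 13.75, 13.81 and 13.67 in SAH-BCL9B, a change of 0.31 ± 0.08 (limma adjusted p = 0.0537), and its second probe set gave 0.29. KRT18 and KRT19 both passed once dim genes were filtered out (adjusted p = 0.0208 and 0.0196). Both also passed under the trended, robust model (0.000754 and 0.00221) and when arrays were weighted (0.0388 and 0.042). The probe sets of KRT8 and KRT18 carry the suffix that the array's maker gives to sets sharing probes with other transcripts, and both genes have many processed pseudogenes, so part of their signal may come from related sequences. KRT18 lay near the top of the arrays' range, which ended between 15.69 and 15.75.

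The remaining keratins did not pass the test. KRT20, the keratin of differentiated intestinal cells, measured 11.25, 11.20 and 11.19 in vehicle and 11.36, 11.25 and 11.22 in SAH-BCL9B, overlapping ranges with a change of 0.06 (95% interval -0.12 to 0.24, limma adjusted p = 0.752). KRT7, a type II keratin more typical of ductal than of colonic epithelium, measured 7.22, 7.32 and 7.30 in vehicle and 6.86, 7.14 and 6.98 in SAH-BCL9B. Its value was -0.28 ± 0.09, all treated arrays were lower, and it did not pass (adjusted p = 0.115) except with array weights (0.0398) and without SAH-BCL9B 2 (0.046). Of its 4 probe sets, 2 had the opposite sign, at 0.08 and 0.09. KRT23 was dim, with a change of 0.0047. Of the 6 keratin members, 1 rose, none fell and 5 did not pass, with a median of 0.17. Over all genes, 3.49% rose and 3.43% fell.

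**Figure D2:**
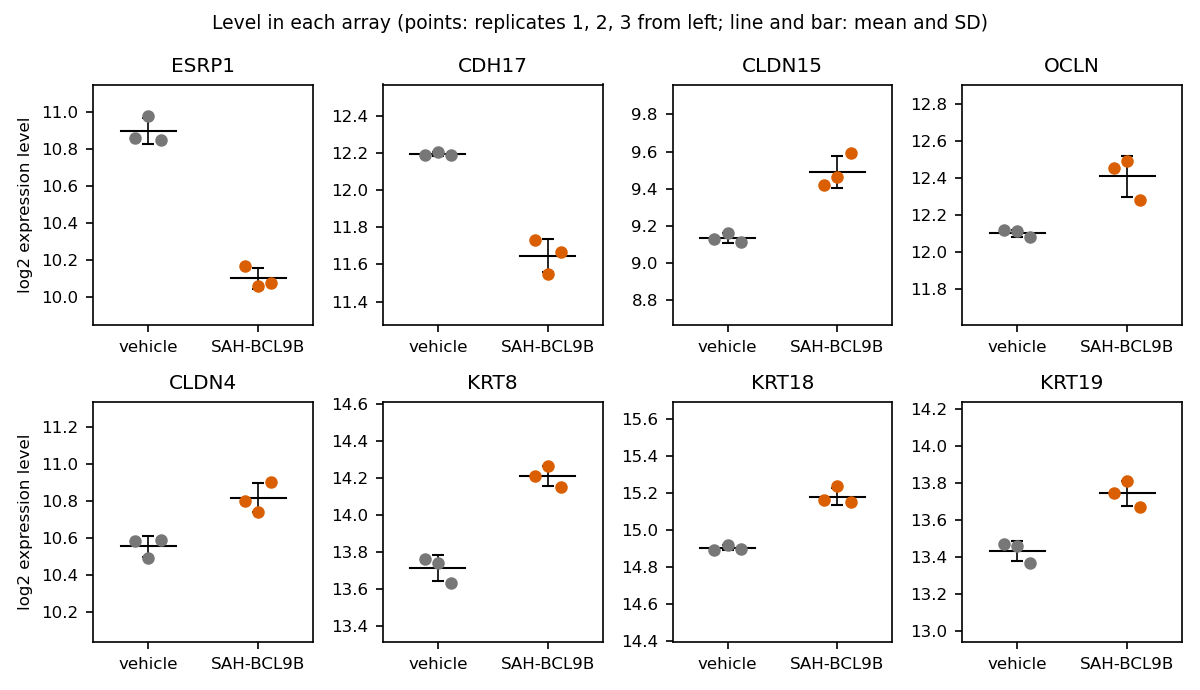
Log2 expression level (y axis, each panel spanning the same number of log2 units) of 8 genes in each of the 6 arrays, 3 per group; points are arrays, lines means and bars SD. The 8 were picked from the 12 members whose groups do not overlap, as held for 28.3% of all genes. CTNNA1 and JUP (higher) and CLDN7 and KRT7 (lower) are not shown. ESRP1 and CDH17 are lower in SAH-BCL9B. CLDN15, OCLN, CLDN4, KRT8, KRT18 and KRT19 are higher, of which CLDN15 and KRT8 passed the test.

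Both polarity genes missed the threshold. PARD6B encodes an adaptor of the PAR complex that sets the apical side, and measured 9.97, 10.17 and 9.89 in vehicle and 10.42, 10.04 and 10.44 in SAH-BCL9B. SAH-BCL9B 2 lay within the vehicle range and the other two above it, and the change was 0.29 (95% interval -0.01 to 0.59, limma adjusted p = 0.249). All 3 of its probe sets were positive. PARD3, the scaffold of the same complex, had -0.27 (interval -0.58 to 0.03), and 1 of its 4 probe sets had the opposite sign.

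ESRP1 changed most of all 33 genes. It encodes an RNA-binding protein that directs epithelial-type exon choice in transcripts such as those of FGFR2, CD44 and CTNND1. It measured 10.86, 10.98 and 10.85 in vehicle and 10.17, 10.06 and 10.08 in SAH-BCL9B, so the lowest vehicle array lay well above the highest treated one. The log2 change was -0.79 ± 0.08 (SE, limma adjusted p = 0.00249). Its second probe set, 10.05, 10.34 and 10.16 in vehicle against 9.64, 9.71 and 9.70, gave -0.50. ESRP1 passed in all 14 alternatives (adjusted p = 2.84e-05 to 0.0317).

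Other probe sets of the same genes gave a further reading of these changes. Of the 33 genes, 21 had more than 1 probe set that named them alone, and in 14 of those all probe sets had the same sign. In the other 7 (CLDN1, CLDN4, OCLN, PKP3, DSG2, KRT7 and PARD3) at least 1 went the opposite way. Of the 4 genes past the threshold, ESRP1 and CLDN15 had a second probe set and both moved the same way, while CDH17 and KRT8 had no second one.

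**Figure D3:**
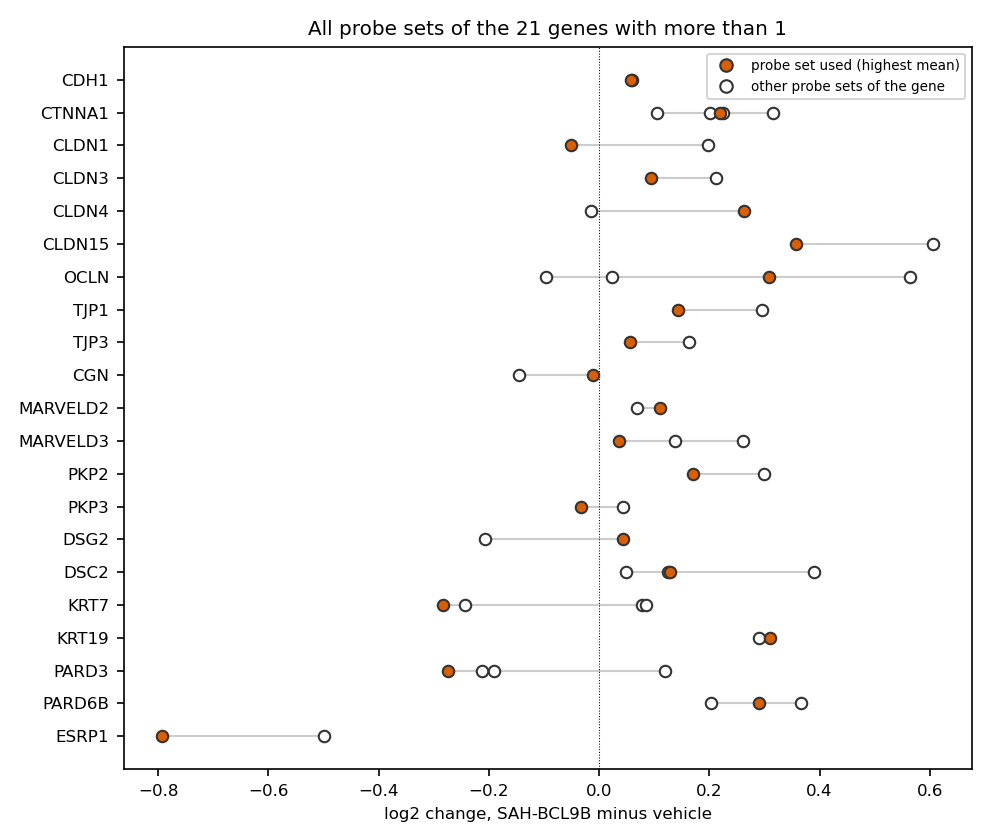
Log2 change (x axis) of every probe set of the 21 genes with more than 1; filled points are the probe sets used, open points the others. The probe sets of ESRP1 lie at -0.79 and -0.50 and those of CLDN15 at 0.36 and 0.61, whereas those of OCLN run from -0.10 to 0.56.

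A further 98 genes of the same structures, their regulators and the mesenchymal state were listed, and 88 had a probe set of their own. Of these, 4 rose and 4 fell (9.09%, against 6.93% of all genes), with a median change of 0.01. None of 27 other tight junction genes, 10 other desmosome genes, 4 gap junction genes and 9 repressor and mesenchymal genes passed limma's test. Unadjusted p was under 0.05 for 1, 1, 0 and 0 of them, and for 21.4% of all genes. Many were dim: 16, 5, 2 and 2 of them lay above the median of all probe sets in vehicle, against 61.9% of all genes. CDH2 changed by -0.04, VIM by 0.09, ZEB1 by -0.01 and SNAI2 by 0.01, and the signs of CDH2, ZEB1 and SNAI2 turned under other settings. Beta-catenin itself (CTNNB1), 1 of 11 other adherens junction genes, had a change of 0.15 ± 0.07 and did not pass (adjusted p = 0.306).

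The genes that fell included 3 of 9 epithelial regulators, against 3.43% of all genes, and with so few genes this count is a description. EHF, an ETS-family factor of epithelial cells, measured 12.70, 12.68 and 12.56 in vehicle and 11.45, 11.13 and 11.26 in SAH-BCL9B, a 2.58-fold fall (log2 change -1.37 ± 0.10, SE, limma adjusted p = 0.00084). GRHL3, a grainyhead-like factor of epithelial barriers, measured 10.67, 10.64 and 10.81 against 10.04, 9.86 and 9.83, a change of -0.80 ± 0.09 (adjusted p = 0.00381). GRHL2, its relative that activates CDH1 and claudin genes in other epithelia, measured 10.80, 10.65 and 10.62 against 10.19, 10.23 and 10.29, a change of -0.45 ± 0.08 (adjusted p = 0.0175). In all 3 the treated arrays lay below the vehicle arrays, which held for 5 of the 9 regulators and for 12% of all genes. All 6 probe sets of EHF were negative. The call of GRHL2 was lost without vehicle 1 or 2 (adjusted p = 0.0904 and 0.0598) and without SAH-BCL9B 1 or 3 (0.0686 and 0.0525). KLF5 and RBM47 had values of -0.67 and -0.41 and did not pass (adjusted p = 0.172 and 0.0765). The groups of KLF5 overlapped, and leaving out SAH-BCL9B 2 gave -0.36. RBM47 passed with dim genes filtered out (limma adjusted p = 0.0364) and under the trended, robust model (0.0114). With the mean of its 5 probe sets RBM47 gave -0.19 and did not pass (0.225). ELF3, another ETS-family factor of epithelial cells, lay on the other side: it measured 10.75, 10.84 and 10.88 in vehicle and 11.21, 11.02 and 10.95 in SAH-BCL9B, without overlap, and its value of 0.23 ± 0.09 did not pass (adjusted p = 0.191). The median of the 9 regulators was -0.41, and the paralog GRHL1 had a value of 0.03, whose sign turned without vehicle 3 or SAH-BCL9B 1.

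Keratins outside the main list also moved in both directions. Of 8 measured, 2 rose and 1 fell, where 3.49% of all genes rose and 3.43% fell, and with so few genes these counts are a description. KRT15, a type I keratin of basal cells, measured 6.67, 6.43 and 6.43 in vehicle and 7.00, 7.19 and 7.27 in SAH-BCL9B (change 0.64 ± 0.10, limma adjusted p = 0.0128). KRT10, a type I keratin best known from differentiating epidermis, measured 10.83, 10.98 and 10.97 against 11.45, 11.42 and 11.53 (0.54 ± 0.08, adjusted p = 0.00955). KRT80, a type II keratin, measured 9.23, 9.42 and 9.22 against 8.74, 8.74 and 8.73 (-0.55 ± 0.08, adjusted p = 0.00995). KRT15 lost its call without vehicle 2 or SAH-BCL9B 3 (limma adjusted p = 0.0543 and 0.0554), and KRT10 without vehicle 1 (0.057). In vehicle, KRT15 lay below the median of all probe sets (mean 6.51). The probe set of KRT10 carries the same suffix for shared probes as those of KRT8 and KRT18, so part of its signal may come from related sequences.

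The other 2 genes that rose were a nectin and a PAR-complex gene. NECTIN2, an immunoglobulin-like adhesion molecule of adherens junctions, changed by 0.39 ± 0.08 (limma adjusted p = 0.0323), and leaving out each array in turn ended the call every time (adjusted p = 0.0544 to 0.148), as did averaging its 4 probe sets (0.27, adjusted p = 0.0978). PARD3B, a relative of PARD3, changed by 0.46 ± 0.07 (adjusted p = 0.0121). With the mean of its 5 probe sets the value was 0.16 (adjusted p = 0.267), and the call was also lost without vehicle 1 or 2 (0.0713 and 0.0503) and without SAH-BCL9B 1 or 3 (0.052 and 0.0509).

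**Figure D4:**
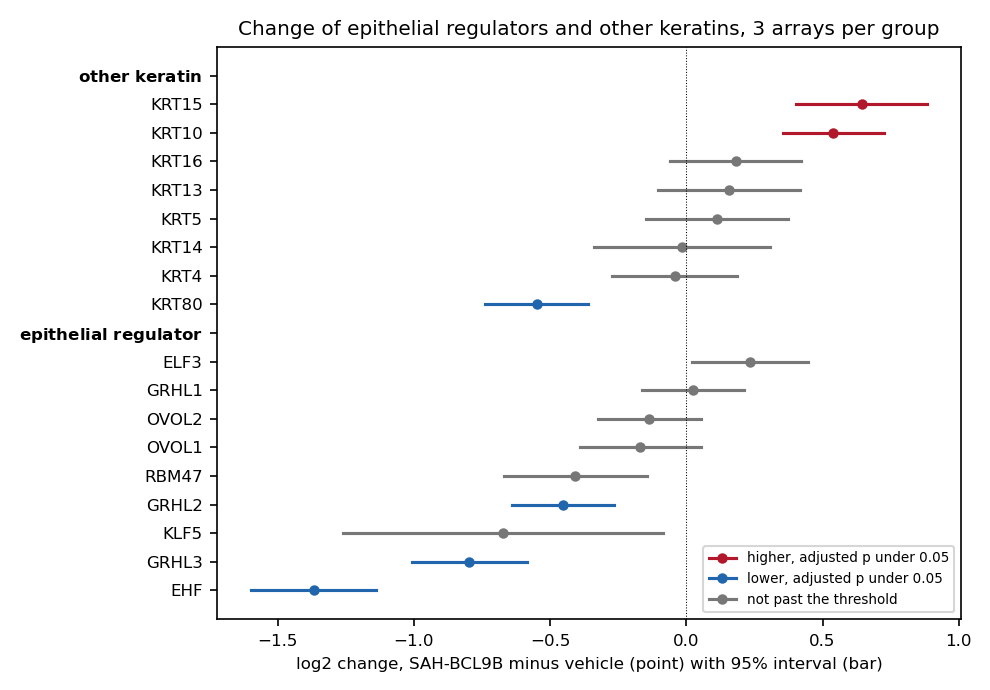
Log2 change (x axis, SAH-BCL9B minus vehicle) of 9 epithelial regulators and 8 keratins outside the main list; points are changes, bars 95% confidence intervals, and colour marks genes past an adjusted p of 0.05. EHF lies lowest at -1.37, GRHL3 and GRHL2 follow among the genes past the threshold at -0.80 and -0.45, and KRT15 (0.64) and KRT10 (0.54) are on the opposite side to KRT80 (-0.55).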

How the data were processed

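Biotin-labelled RNA of 6 DLD1 cultures was measured on Affymetrix U133 Plus 2.0 arrays, per the labels. The deposited data are log2 values made by the authors, 54675 probe sets in each array; RMA and affy are named in the submitters' processing notes, with versions not given in the sources used here. Normalization between arrays hides a shift common to most genes, and RMA shrinks changes of dim probe sets. The log2 scale was taken from the range of values.

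Probe sets were named from GEO's platform annotation and RefSeq genes of GRCh38.p14. Of them, 41091 named 1 gene and 1801 several. Each of 19775 genes was represented by the 1-gene probe set with the highest mean over 6 arrays, with no filter on low values. SAH-BCL9B and vehicle were compared over all genes with limma 3.58.1 in R 4.3.3 (lmFit, eBayes, Benjamini-Hochberg adjustment, threshold 0.05), groups from the sample titles. SE and 95% intervals come from limma, and p-values measure the spread between these cultures, whose independence the labels do not state beyond calling them triplicates. Classes are described by counts and medians. The number of arrays limits the precision.

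The members and lists were chosen with earlier results of these data known. All members were to be named, with every array's value for those past the threshold, the largest change in a class without one, and CDH1, KRT8, KRT18 and KRT20; other members' array values were added after their values were seen. Of the related genes, those past the threshold and CTNNB1, CDH2, VIM, ZEB1 and SNAI2 were named; GRHL1, KLF5, RBM47, ELF3 and FN1 were added later. Promoter windows were searched with Python 3.11.15 for motifs chosen after the expression values were seen.

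Simulated data had the real means and spreads of 19775 genes. Of 100 genes changed by 0.5 (log2), 39 were recovered, and of 100 changed by 1, 85. There were 5 false calls, and 0 calls where nothing changed. No other gene was changed there, whereas 1370 genes passed in the real data, and the adjusted threshold is stricter when fewer genes change. The share of real differences of 0.5 that would be missed is therefore not known. Alternatives were a block for the replicate number, a filter on low values, the mean of a gene's probe sets, single tests of all probe sets, median centring, a variance trend with robust fit, array weights, each array left out, and vehicle 3 with SAH-BCL9B 2 left out. Plots were drawn with matplotlib 3.10.9.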

Additional observations from a re-analysis of the deposited data

How the results depend on the processing

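The 33 junction and keratin genes and the 18 related genes named were followed through 14 alternatives. Of 710 values in all, 622 kept their direction and side of the threshold, 38 lost a call, 19 gained one and 31 changed sign. The members that rose numbered 2, and became 0 with the replicate number as a block, 7 with the filter on low values, 7 with a variance trend and robust fit, 5 with array weights, 1 with vehicle 3 and SAH-BCL9B 2 left out, and 0 to 2 with each array left out (0 without vehicle 1). The members that fell numbered 2, and became 1 with the block, 4 with array weights and 2 to 3 with each array left out. The filter kept 12258 genes and left out KRT23. Related genes that rose numbered 4, and became 0 with the block, 2 with the mean of all probe sets and 1 to 3 with each array left out; those that fell numbered 4, and became 2 with the block and 3 to 4 with each array left out. Of all 19775 genes, 1370 passed, against 296 with the block, 2456 with a trend and robust fit and 2172 with array weights. Under the filter, 2270 of the 12258 kept genes passed. Leaving out each array gave 316 to 1426 (316 without vehicle 1). In the block, filter, trend and array weight settings, the number of members that rose moved in the same direction as this total. Those member counts are therefore a description. The median of the keratins was 0.28 with the filter, and the value of ESRP1 was -0.65 with the mean of its probe sets. With each array left out, class medians ran from 0.05 to 0.16 for adherens junctions, 0.03 to 0.08 for tight junctions, -0.01 to 0.12 for desmosomes, 0.16 to 0.20 for keratins and -0.07 to 0.12 for polarity genes. The causes of these shifts were not tested.

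The replicate numbers did not pair the arrays: deviations from the group means correlated at 0.24, -0.20 and -0.32 for numbers 1, 2 and 3 across genes, and vehicle 3 went with SAH-BCL9B 2 (0.42). With the replicate block the limma adjusted p was 0.055 for CDH17, 0.0569 for KRT8 and 0.12 for CLDN15, and ESRP1 alone of the members kept its call.

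Changes of sign were limited to values that did not pass. Averaging a gene's probe sets gave 0.074 for CLDN1, 0.0058 for PKP3, -0.082 for DSG2 and 0.18 for ZEB1. Array weights gave -0.10 for KRT23, -0.087 for SNAI2 and 0.0058 for ZEB1. Leaving out vehicle 3 and SAH-BCL9B 2 gave 0.022 for DSP, -0.17 for KRT23, -0.15 for SNAI2 and 0.083 for ZEB1. With each array left out, values ran from -0.072 to 0.025 for CDH3, -0.17 to 0.11 for CLDN1, -0.075 to 0.025 for CLDN12, -0.042 to 0.036 for CGN, -0.082 to 0.24 for MARVELD3, -0.13 to 0.037 for DSP, -0.023 to 0.12 for DSG2, -0.20 to 0.11 for KRT23, -0.095 to 0.041 for CDH2, -0.14 to 0.085 for SNAI2, -0.14 to 0.14 for ZEB1 and -0.012 to 0.074 for GRHL1.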
